A study of Mus musculus with 6 samples.

Results

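The transcripts of 9 transcription factors that shape the macrophage lineage were examined in cultured mouse fetal liver macrophages with and without the aryl hydrocarbon receptor repressor. The 9 genes were Spi1, Cebpa, Cebpb, Maf, Irf8, Pparg, Bach2, Bhlhe40 and Bhlhe41. They were matched by gene symbol in the deposited normalised table of 16111 genes, and each was found in 1 row. Ahrr encodes a protein that competes with AhR, the aryl hydrocarbon receptor that ligands switch on, for its partner and its DNA sites. The comparison addresses which transcripts differ between cells that carry Ahrr and cells labelled AhRR-/-.

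The wild-type group held 3 libraries and the Ahrr-deficient group held 3, all of C57BL/6 RCC mice and each labelled with its own mouse number. Per the labels' protocols, the cells came from fetal liver at E13.5, an embryonic age in days, in both groups, and were kept for 5 weeks in RPMI medium with fetal calf serum, antibiotics, glutamine and 2% GM-CSF, a growth factor for macrophages. Polyadenylated RNA of the non-adherent cells was sequenced, so cells that stuck to the dish are not represented. The labels do not describe the Ahrr allele, a litter or a culture batch.

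A macrophage acquires its identity through a small set of DNA-binding proteins. PU.1, the product of Spi1, opens enhancers in myeloid cells, and the C/EBP proteins bind beside it. IRF8, MAF, PPARG, BACH2 and the BHLHE40 and BHLHE41 pair then adjust the programme, each through its own partners and DNA sites. GM-CSF is known to raise PPARG in macrophages of the lung, and the fetal liver supplies the monocytes from which those macrophages arise.

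Libraries held between 3556106 and 41668336 counts, an 11.7-fold range, with the smallest and the largest both in the Ahrr-deficient group. A level of 3 counts, used as the floor, was 0.844 counts per 1000000 counts (CPM) in the smallest library and 0.0720 CPM in the largest. Ahrr itself was at 4.60, 4.29 and 5.33 CPM in the wild-type libraries and at 2.25, 2.57 and 1.21 CPM in the Ahrr-deficient ones. Its log2 fold change was -1.21 (SE 0.26, adjusted p = 0.0151, edgeR), at a mean of 48.8 counts. The Ahrr call was lost without wild-type replicate 1 or without wild-type replicate 3. All 12 macrophage markers were detected, with a summed level of 23640 to 29190 CPM in wild-type and 17930 to 25080 CPM in Ahrr-deficient libraries. Lyz2 made up most of this sum and did not pass the test. Of the 12 markers, Itgax and Mrc1 rose and Csf1r and Cd14 fell. Of 10 eosinophil and mast cell markers and 9 lymphoid markers, all had fewer than 10 counts over the 6 libraries. Of 12 granulocyte markers 7 were under that level, among them Ly6g, Mpo and Elane. The list summed to 18.9 to 34.8 CPM in wild-type and 4.01 to 12.9 CPM in Ahrr-deficient libraries, most of it Cxcr2 and Csf3r. Of 10 erythroid and megakaryocyte markers 7 were under 10 counts, including the globins. The sums were 16.0 to 25.4 and 4.15 to 6.75 CPM, most of it Epor. Dendritic cell markers, of which 5 of 8 were under that level, summed to 57.6 to 62.1 and 72.0 to 93.2 CPM, nearly all of it Clec9a. Of 7 hepatocyte markers, 4 were under it, among them Alb, and the sums of 158 to 186 and 89.7 to 120 CPM were nearly all Trf, the transferrin gene. Of 6 osteoclast markers 2 were under it, with sums of 338.2 to 365.5 and 254.7 to 402.5 CPM. The 2 that were tested, Acp5 and Ctsk, did not pass. Of the other markers outside the macrophage list, Cxcr2, Csf3r, Epor, Itga2b and Trf were called lower. Clec9a was called higher, and Zbtb46 did not pass. The part of these shifts in the results below was not tested. In bulk libraries, fewer cells of a type and less RNA per cell cannot be told apart.

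Among the 9 factors, Bhlhe40 and Pparg rose in the Ahrr-deficient cells, and Irf8 and Maf fell. Spi1, Cebpa, Cebpb, Bach2 and Bhlhe41 did not pass the test. All 9 passed the filter on low counts and were tested among 11408 genes with the quasi-likelihood test of edgeR, with a threshold of 0.05 on the adjusted p. The 4 called factors of 9 stand beside 19.6% of all tested genes. The 2 higher ones stand beside 9.62% of tested genes called higher, and the 2 lower ones beside 9.95% called lower. In the same 4 factors the libraries of the groups did not overlap in CPM, which held for 36.6% of tested genes. The median log2 fold change was -0.06 over the 9 factors and 0.01 over all tested genes.

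**Figure D1:**
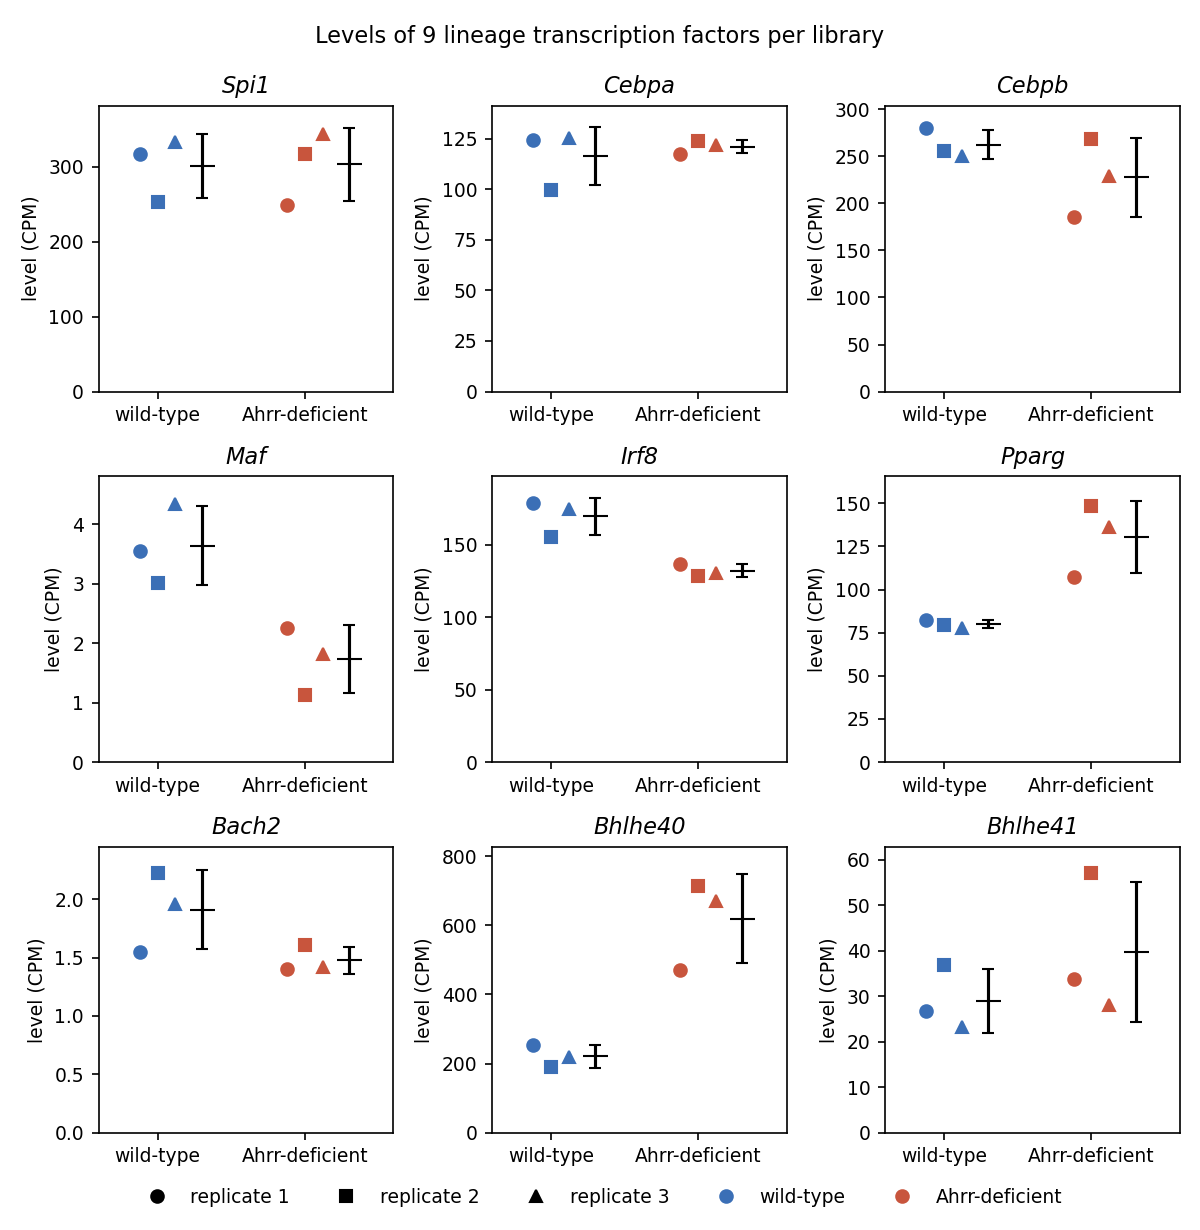
Level of each of the 9 factors in each library in CPM (vertical axes, each from 0), by genotype. Circles, squares and triangles are replicates 1, 2 and 3, and the bar beside them is the mean with its SD (n = 3). The groups stand apart for Maf, Irf8, Pparg and Bhlhe40 and overlap in the other panels.

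Spi1 (ENSMUSG00000002111.8, chromosome 2, 91082390 to 91115756, plus strand, GRCm38) encodes PU.1, without which macrophages do not form. It had 318, 253 and 334 CPM in wild-type replicates 1, 2 and 3, and the Ahrr-deficient replicates had 249, 318 and 344 CPM in the same order. The groups overlapped, with wild-type replicate 2 and Ahrr-deficient replicate 1 the lowest of each. The means were 302 ± 42.5 and 304 ± 48.8 CPM (SD, n = 3), with a log2 fold change of -0.06 (SE 0.12, adjusted p = 0.780, edgeR). The 95% interval of this fit ran from -0.34 to 0.22, or from 0.791 to 1.17 times the wild-type level. It does not cover the choice of processing, such as the GC offsets below.

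Cebpa (ENSMUSG00000034957.10, chromosome 7, 35119293 to 35121928, plus strand) encodes the C/EBP factor that starts the myeloid programme in progenitors. Wild-type levels were 124, 99.7 and 125 CPM, and Ahrr-deficient levels were 117, 124 and 122 CPM. The Ahrr-deficient libraries lay within the wild-type range. The log2 fold change was -0.01 (SE 0.08, adjusted p = 0.920, edgeR), with a 95% interval from -0.19 to 0.16. The antisense gene Gm45091 shares 51 bases of exon with Cebpa and was at 0.303 to 0.563 CPM.

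Cebpb (ENSMUSG00000056501.3, chromosome 2, 167688915 to 167690418, plus strand) encodes the relative that acts in inflammatory activation of mature cells. It was at 280, 256 and 251 CPM in wild-type and at 185, 269 and 230 CPM in Ahrr-deficient libraries. Ahrr-deficient replicates 1 and 3 were below every wild-type library, and replicate 2 was within their range. The log2 fold change of -0.28 (SE 0.13) did not pass the test (adjusted p = 0.158, edgeR), and its 95% interval ran from -0.57 to 0.01. Tmem189, on the opposite strand, shares 312 bases of exon with Cebpb and was at 226 to 313 CPM. The TruSeq v2 kit does not mark strand, so reads of that stretch cannot be assigned to either gene.

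Spi1, Cebpa and Cebpb had exons of high GC content, 58.9%, 62.6% and 67.2%, at the 94.5, 99.1 and 99.9 percentiles of tested genes. With offsets for GC content, their log2 fold changes became 0.11, 0.23 and 0.02, each above 0 and none past the threshold. Their sign is therefore not fixed by these data. The log2 ratio of Cebpb to Cebpa within a library was 1.18 ± 0.18 in wild-type and 0.89 ± 0.23 in Ahrr-deficient libraries. This difference of -0.28 gave p = 0.2 in an exact two-sided permutation test, or 0.267 adjusted over 4 ratios, where 0.1 is the smallest p that 3 against 3 allows.

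Among other C/EBP and ETS family genes, 3 of 16 tested rose and 13 did not pass, with a median log2 fold change of 0.09. The share called, 18.8%, was near the 19.6% of all tested genes. Ddit3, which encodes a stress-induced C/EBP relative, went from 12.5 ± 1.59 to 48.6 ± 29.5 CPM (log2 fold change 1.98, adjusted p = 0.00915, edgeR). Etv5, an ETS factor, went from 2.03 ± 1.04 to 7.47 ± 3.90 CPM (1.81, adjusted p = 0.0172). The third was Spic, a close relative of Spi1, with 0.955 ± 0.140 and 2.28 ± 0.285 CPM, named here after its values were seen. The count dropped to 1 after thinning to the smallest total and without wild-type replicate 1, wild-type replicate 2 or Ahrr-deficient replicate 2. Spic, at a mean of 24.5 counts, passed in 6 of 14 other fits, with DESeq2 and the replicate block among those it did not pass. Etv5 passed in 12 of 16.

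Genes whose expression in macrophages is known to depend on PU.1 were called in both directions. Of 23 tested, 4 rose and 4 fell, where 9.62% and 9.95% of all tested genes did so, with a median log2 fold change of -0.11. Those that rose were Tlr4 (the lipopolysaccharide receptor, 1.10), the scavenger receptor gene Msr1 (0.66), the mannose receptor gene Mrc1 (0.59) and Ncf1, an oxidase subunit (0.47). Those that fell were Cd14, the co-receptor of Tlr4 (-1.66), the Fc receptor gene Fcgr3 (-0.78), the M-CSF receptor gene Csf1r (-0.65) and the signalling adaptor gene Tyrobp (-0.45). Cd14 and Tlr4 thus changed in opposite directions, from 905 ± 112 to 305 ± 94.2 CPM and from 158 ± 21.7 to 357 ± 17.8 CPM. Tlr4, Mrc1, Cd14 and Fcgr3 passed in each of the 16 other fits. The count of 8 became 4 without wild-type replicate 1, and 5 (3 higher, 2 lower) without wild-type replicate 2 or 3 or with the replicate block and GC offsets. It became 10 (4 higher, 6 lower) with DESeq2 and 12 (4 higher, 8 lower) without Ahrr-deficient replicate 1, so the even split is not fixed.

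Of 6 tested C/EBP-dependent genes only Csf3r, the G-CSF receptor gene, was called. This share, 16.7%, was near the 19.6% of all tested genes. Csf3r fell from 7.64 ± 0.587 to 1.65 ± 1.01 CPM (log2 fold change -2.69, SE 0.29, adjusted p = 0.00151, edgeR). Csf3r is also a granulocyte marker, and with Cxcr2 it made up most of the marker sum that was lower in the Ahrr-deficient libraries. Arg1, Chil3 and Lyz2, the abundant genes of the list, had log2 fold changes of -0.14, -0.13 and -0.46 and did not pass. Without Ahrr-deficient replicate 1 the count of called genes was 4, all lower.

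Irf8 (ENSMUSG00000041515.9, chromosome 8, 120736358 to 120756694, plus strand) encodes an interferon regulatory factor that pairs with PU.1 and favours monocytes over granulocytes. It fell in the Ahrr-deficient cells. RefSeq promoter windows (GRCm38.p6) were at hand for 6 of the 9 factors, namely Cebpa, Cebpb, Irf8, Pparg, Bach2 and Bhlhe41, and those of Irf8 and Pparg are shown because these genes changed. Each window covers the 250 bases before a transcription start and was searched on both strands for 5 short motifs. These were the AhR core GCGTG, the E-box CACGTG (its own reverse complement), the PU.1 core GAGGAA, the MAF core TGCTGA and the GC box GGGCGG. Of 32851 mouse promoter windows, 28.2%, 6.02%, 23.3%, 16.1% and 32.7% held them in that order. The upstream Irf8 window lies at chr8:120736108-120736357 on the plus strand, with its 2 matches, both to the GC box read on the opposite strand, in capitals.
Irf8: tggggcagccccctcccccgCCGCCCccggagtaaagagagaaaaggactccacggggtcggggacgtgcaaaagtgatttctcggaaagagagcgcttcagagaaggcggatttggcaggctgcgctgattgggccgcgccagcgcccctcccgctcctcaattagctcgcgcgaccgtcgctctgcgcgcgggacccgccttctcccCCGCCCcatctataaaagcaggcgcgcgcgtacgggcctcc
The second Irf8 start had a single match, to TGCTGA, 157 bases before it. Windows of Cebpa and Bach2 held none of the 5 motifs. The Bach2 window, at 32417185 to 32417434 on chromosome 4, lies within the annotated gene. That gene starts at 32238804, where no window was searched. Cebpb had GCGTG 10 bases before its start and 5 GC boxes, of which 2 overlapped. A match says only that the letters occur there.

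Irf8 was at 179, 155 and 175 CPM in wild-type and at 137, 128 and 130 CPM in Ahrr-deficient libraries. Every Ahrr-deficient library was below every wild-type one, and the Ahrr-deficient values were close together. The means were 170 ± 12.5 and 132 ± 4.47 CPM (SD, n = 3), a fall to 0.738 of the wild-type level. Its log2 fold change of -0.44 (SE 0.07) had an adjusted p of 0.00631 (edgeR) and a 95% interval from -0.61 to -0.27. In the deposited normalised signal the values were 1895, 1813 and 1813 against 1425, 1309 and 1349. The call held in each of the 16 other fits, with adjusted p between 3.02e-04 and 0.0483.

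Irf4, the nearest relative of Irf8 and also a PU.1 partner, moved the other way. It was at 24.1, 18.4 and 24.8 CPM in wild-type and at 53.2, 59.8 and 72.9 CPM in Ahrr-deficient libraries. Its log2 fold change was 1.40 (SE 0.13, adjusted p = 8.97e-04, edgeR). The log2 ratio of Irf8 to Irf4 counts was 2.92 ± 0.13 in wild-type and 1.10 ± 0.26 in Ahrr-deficient libraries. The groups did not overlap, and the difference of -1.82 had p = 0.1 in the exact permutation test (0.2 adjusted over 4 ratios), the smallest possible.

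Of 7 tested IRF relatives, Irf4 rose, Irf7 fell and 5 did not pass. The share called, 28.6%, stands beside 19.6% of all tested genes. Irf7, which drives type I interferon genes, went from 11.3 ± 0.825 to 5.11 ± 2.22 CPM (log2 fold change -1.39, adjusted p = 0.00631). Irf5, a factor of inflammatory activation, had 0.44 at an adjusted p of 0.0542. Without Ahrr-deficient replicate 1 the list had 4 called genes. Of 5 tested genes linked to IRF8, only Tlr9, the receptor of unmethylated DNA, fell, from 10.4 ± 2.31 to 5.18 ± 1.46 CPM (-1.18, adjusted p = 0.0146). The share called, 20%, was near the 19.6% of all tested genes. The Tlr9 call was lost without wild-type replicate 3 or Ahrr-deficient replicate 2, and 3 genes were called without Ahrr-deficient replicate 1. Cybb, an oxidase subunit, had -0.13 and did not pass.

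Maf (ENSMUSG00000055435.6, chromosome 8, 115682942 to 115707794, minus strand) encodes c-MAF, a bZIP factor that helps to hold macrophages in a differentiated, non-dividing state. It fell in the Ahrr-deficient cells at low counts. The wild-type libraries held 78, 19 and 31 counts, or 3.56, 3.02 and 4.34 CPM. The Ahrr-deficient libraries held 8, 47 and 18 counts, or 2.25, 1.13 and 1.82 CPM. The groups did not overlap, and the lowest level was in the most deeply sequenced library. The means of 3.64 ± 0.668 and 1.73 ± 0.566 CPM gave a log2 fold change of -1.40 (SE 0.29, adjusted p = 0.0124, edgeR), a 2.64-fold lower fitted level. The 95% interval ran from -2.04 to -0.75. The call was lost without wild-type replicate 1 (-1.41, adjusted p = 0.0628) and without Ahrr-deficient replicate 2 (-0.95, adjusted p = 0.0864). An antisense gene, Gm15655, shares 440 bases of exon with Maf and was not among the listed genes.

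Of 7 other tested genes with the Maf or CNC domain, Mafg, which encodes a small Maf without an activation domain, rose from 48.0 ± 1.12 to 82.4 ± 16.9 CPM (log2 fold change 0.72, SE 0.13, adjusted p = 0.00842, edgeR) and 6 did not pass. The share called, 14.3%, stands beside 19.6% of all tested genes. The median log2 fold change over the list was 0.30. DESeq2, limma-voom and the fits with the replicate block called 2 genes of the list, as did the fit without wild-type replicate 3, and 6 were called without Ahrr-deficient replicate 1.

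Pparg (ENSMUSG00000000440.12, chromosome 6, 115360951 to 115490399, plus strand) encodes a lipid-activated nuclear receptor that works with RXR and is a defining factor of alveolar macrophages. It rose in the Ahrr-deficient cells. Of 3 RefSeq starts of Pparg, the first had the AhR core GCGTG at 242 and 8 bases and a GC box at 177 bases before it. The part of that window outside annotated exons lies at chr6:115360894-115360950 on the plus strand, with the match at 242 bases, on the opposite strand, in capitals.
Pparg: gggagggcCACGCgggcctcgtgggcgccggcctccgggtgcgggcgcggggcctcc
The second start had the PU.1 core GAGGAA at 240 bases and GC boxes at 210 and 127 bases before it, and the third had no match. The table of genes does not separate these starts.

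Pparg was at 82.5, 79.7 and 77.8 CPM in wild-type and at 107, 148 and 136 CPM in Ahrr-deficient libraries. Each Ahrr-deficient library exceeded each wild-type one, and the wild-type values were nearly equal. The means were 80.0 ± 2.38 and 131 ± 20.9 CPM (SD, n = 3). The fitted rise was 1.56-fold (log2 fold change 0.64, SE 0.11, adjusted p = 0.00736, edgeR), with a 95% interval from 1.30-fold to 1.86-fold. In the deposited normalised signal Pparg had 876, 931 and 806 in wild-type and 1118, 1510 and 1410 in Ahrr-deficient libraries. The call held in each of the 16 other fits, with adjusted p from 7.66e-05 to 0.0452.

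Of 11 tested receptors and co-factors around PPARG, 3 rose and 3 fell, where 9.62% and 9.95% of all tested genes did so. The median log2 fold change was 0.07. With GC offsets 5 were called higher and 1 lower, with 4 calls shared, and with the replicate block as well 4 higher and 1 lower. Vdr, the vitamin D receptor gene, rose from 90.4 ± 27.9 to 269 ± 45.0 CPM (1.50, SE 0.19, adjusted p = 0.00239). Ppargc1b, a co-activator gene, and Rara, a retinoic acid receptor gene, rose by 0.88 and 0.60 on the log2 scale. Nr1h3, which encodes the oxysterol receptor LXR alpha, fell from 20.3 ± 1.85 to 12.6 ± 0.564 CPM (-0.80, SE 0.11, adjusted p = 0.00310). Nr1h2, its beta counterpart, and Rxrb each had -0.38. Rxra, the usual partner of PPARG in myeloid cells, had 158 ± 17.1 and 181 ± 19.2 CPM (0.13, SE 0.09, adjusted p = 0.346), though with GC offsets it was called (0.26, adjusted p = 0.0267). Vdr, Ppargc1b and Nr1h3 passed in each of the 16 other fits. The count of 6 became 3 without any 1 wild-type library or without Ahrr-deficient replicate 2, and Rara, Nr1h2 and Rxrb were not called in those 4 fits.

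Genes listed as PPARG targets fell more often than they rose, while Pparg rose. Ppard, the gene of a related receptor, was at 67.7 ± 7.37 and 68.2 ± 11.4 CPM and did not pass. Whether PPARG or a related receptor acts on the listed genes in these cells was not tested. Of 14 tested, 8 fell, 1 rose and 5 did not pass, with a median log2 fold change of -0.46. Over all tested genes 9.95% fell and 9.62% rose. Angptl4, a lipase inhibitor gene, fell from 74.2 ± 14.0 to 16.5 ± 8.37 CPM (-2.44, SE 0.29, adjusted p = 0.00218, edgeR). Plin2, which coats lipid droplets, fell from 1951 ± 31.3 to 830 ± 137 CPM (-1.31, SE 0.14, adjusted p = 0.00158). Slc25a20 and Cpt1a, which carry fatty acids into mitochondria, fell by 0.62 and 0.51 on the log2 scale, although the groups overlapped in CPM for Cpt1a. Lpl, the lipoprotein lipase gene, was called higher, from 5567 ± 345 to 8407 ± 710 CPM (0.52, SE 0.12, adjusted p = 0.0173). That call was lost with the replicate block and GC offsets, without any 1 wild-type library and without Ahrr-deficient replicate 3. Cd36 and Fabp4, a fatty acid transporter and a fatty acid binding protein, had -0.12 and -0.53 and did not pass. The remaining genes that fell, named after their values were seen, were Pdk4, Cidec, Acadl and Ech1. The count of 9 became 3 without wild-type replicate 1, and 5 without wild-type replicate 2 or 3 or Ahrr-deficient replicate 2 or 3.

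**Figure D2:**
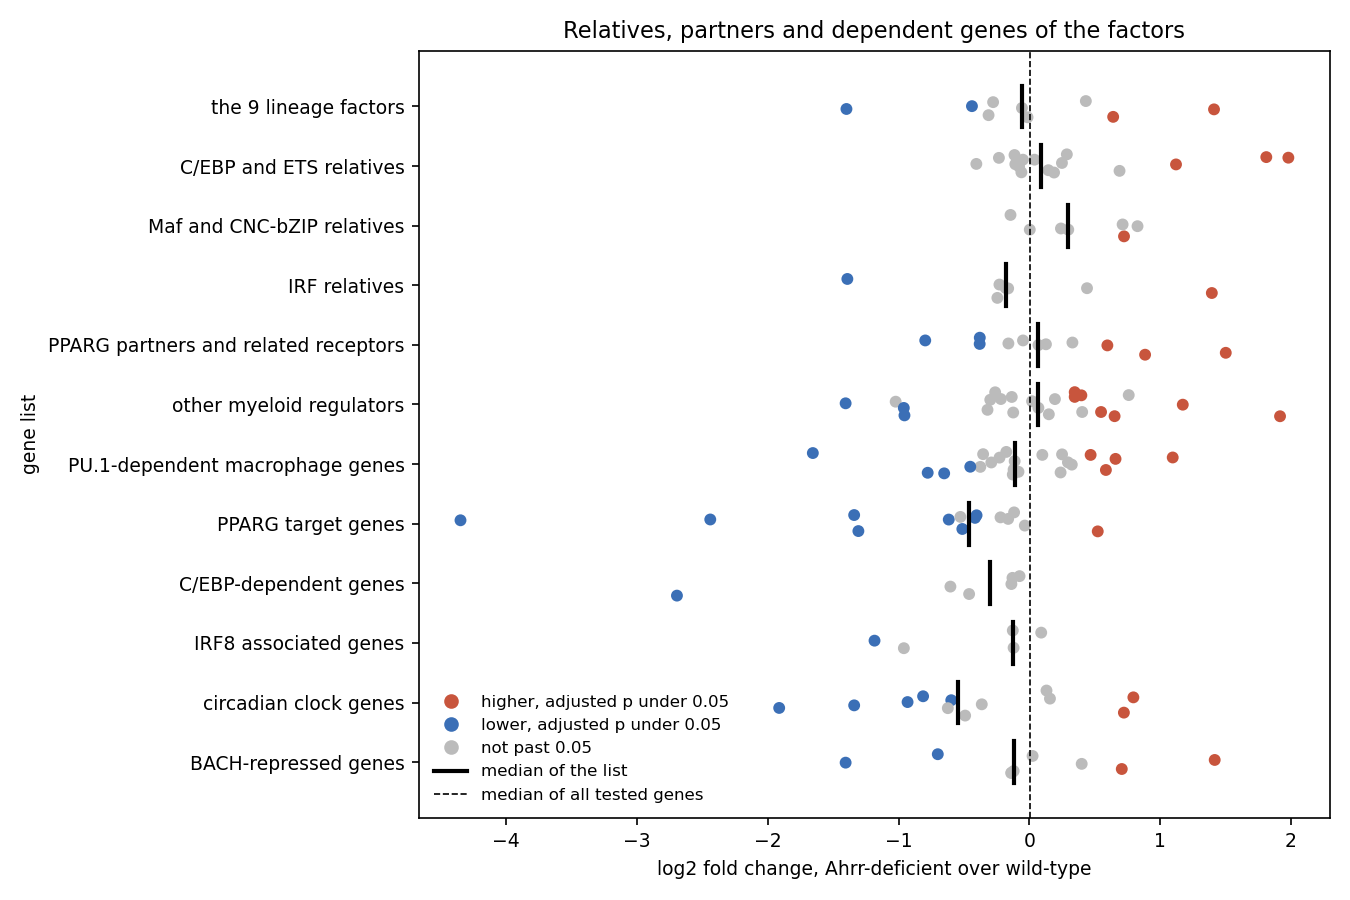
Log2 fold change of each tested gene (1 point each, horizontal axis) in the 9 factors and in 11 lists of relatives, partners and dependent genes (vertical axis). Red and blue points passed the threshold, grey points did not, thick lines are list medians and the dashed line is the median of all tested genes, 0.01. Genes listed as PPARG targets lie mostly left of 0, with Lpl alone among called genes to the right.

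Bach2 (ENSMUSG00000040270.16, chromosome 4, 32238804 to 32586108, plus strand) encodes a repressor that competes with activators of the CNC family at MAF-type sites and is best known from lymphocytes. It was barely expressed. Counts were 34, 14 and 14 in wild-type and 5, 67 and 14 in Ahrr-deficient libraries, or 1.55, 2.22 and 1.96 CPM against 1.41, 1.61 and 1.42 CPM. In CPM the highest Ahrr-deficient library exceeded the lowest wild-type one, while in the deposited normalised signal the lowest wild-type value was 16.5 and the highest Ahrr-deficient one 16.4. The log2 fold change of -0.31 (SE 0.26, adjusted p = 0.492, edgeR) had a 95% interval from -0.91 to 0.28, and at this depth a fall within that interval could not be told from no change. The antisense gene Bach2os shares 537 bases of exon with it and was at 0.0912 to 0.816 CPM.

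Its relative Bach1, the form that senses heme, was at 179 ± 8.80 CPM in wild-type and 189 ± 18.3 CPM in Ahrr-deficient libraries, with a log2 fold change of 0.00 (SE 0.09, adjusted p = 0.986). Of 9 tested genes that BACH proteins repress, 2 rose and 2 fell (median -0.12), where 9.62% and 9.95% of all tested genes did so. Slc7a11, the cystine transporter gene, rose from 16.9 ± 1.78 to 46.0 ± 19.5 CPM (1.42, adjusted p = 0.00915) and Txnrd1, a thioredoxin reductase gene, from 116 ± 19.4 to 198 ± 54.1 CPM (0.71, adjusted p = 0.0211). Fth1, the ferritin heavy chain gene, fell by 0.70 and Prdm1, a repressor gene, fell by 1.40 on the log2 scale. The count of 4 became 1 without wild-type replicate 1 and 2 without wild-type replicate 2. Without Ahrr-deficient replicate 3 both lower calls were lost and 3 genes were called higher, 2 of them Slc7a11 and Txnrd1.

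Bhlhe40 (ENSMUSG00000030103.11, chromosome 6, 108660629 to 108666925, plus strand) and Bhlhe41 (ENSMUSG00000030256.11, chromosome 6, 145858243 to 145865558, minus strand) encode sister repressors that bind the E-box CACGTG, dampen the circadian clock and support self-renewal of alveolar macrophages. Bhlhe40 had the largest rise among the 9 factors. The Bhlhe41 promoter is shown because it holds the E-box of both proteins, a motif in 6.02% of promoter windows, 153 bases before the start. The part outside annotated exons lies at chr6:145865559-145865670 on the minus strand, with the E-box and 2 GC boxes in capitals.
Bhlhe41: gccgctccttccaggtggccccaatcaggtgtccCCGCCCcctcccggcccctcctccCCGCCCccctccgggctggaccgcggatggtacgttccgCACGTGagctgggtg
Closer to the start, the Bhlhe41 window also held GCGTG at 119 and 66 bases and a GC box at 7 bases.

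Bhlhe40 was at 255, 189 and 220 CPM in wild-type and at 472, 714 and 670 CPM in Ahrr-deficient libraries. The lowest Ahrr-deficient library, the most shallowly sequenced, was still well above the highest wild-type one. The means were 221 ± 32.9 and 618 ± 129 CPM (SD, n = 3), and the fitted rise was 2.66-fold (log2 fold change 1.41, SE 0.16, adjusted p = 0.00158, edgeR). The 95% interval ran from 2.08-fold to 3.40-fold. The deposited normalised signal was 2702, 2204 and 2277 in wild-type and 4908, 7272 and 6930 in Ahrr-deficient libraries. In the 16 other fits the log2 fold change lay between 1.30 and 1.55 and each passed the threshold. The antisense gene 0610040F04Rik, which was not among the listed genes, shares 118 bases of exon with Bhlhe40.

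Bhlhe41 was more variable. It was at 26.6, 36.8 and 23.3 CPM in wild-type and at 33.8, 57.1 and 28.1 CPM in Ahrr-deficient libraries. The groups overlapped, and Ahrr-deficient replicate 2 was above all the others. The means were 28.9 ± 7.07 and 39.7 ± 15.4 CPM (SD, n = 3), and the log2 fold change of 0.43 (SE 0.28) did not pass the test (adjusted p = 0.298, edgeR). Its 95% interval, from -0.20 to 1.06, included both no change and a rise of 2.09-fold, and the value was 0.01 without Ahrr-deficient replicate 2. Gm43909, on the opposite strand, shares 1280 bases of exon with Bhlhe41 and was at 0.182 to 1.18 CPM.

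The sister genes were also compared within each library. The log2 ratio of Bhlhe41 to Bhlhe40 counts was -3.25, -2.35 and -3.23 in wild-type and -3.80, -3.64 and -4.57 in Ahrr-deficient libraries. Each Ahrr-deficient ratio was below each wild-type ratio. The difference of the means was -1.06, with p = 0.1 in the exact permutation test and 0.2 adjusted over 4 ratios, so it could not reach the threshold in this design.

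**Figure D3:**
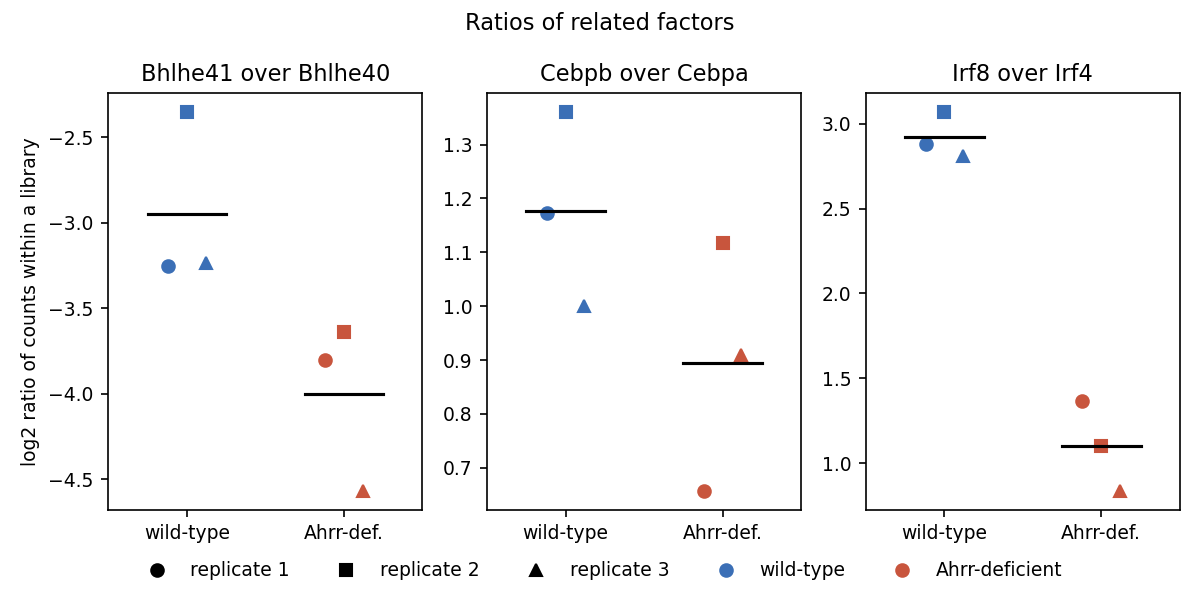
Log2 ratio of counts of 3 pairs of related factors within each library (vertical axes, prior count 2, ranges differ between panels), by genotype, with the mean as a line. The groups stand apart for Bhlhe41 over Bhlhe40 and for Irf8 over Irf4, and overlap for Cebpb over Cebpa.

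Of 12 tested genes of the circadian clock, 5 fell and 2 rose, where 9.95% and 9.62% of all tested genes did so, with a median log2 fold change of -0.54. The list holds targets of E-box binding factors and also Arntl and Clock, which encode such factors. Dbp, a clock output factor gene, fell from 10.5 ± 2.31 to 3.20 ± 0.888 CPM (-1.91, SE 0.25, adjusted p = 0.00285, edgeR). Nr1d1, the REV-ERB alpha gene, fell by 1.34, Per1 by 0.93 and Per3 by 0.81 on the log2 scale. Per1 was at 295 ± 31.5 CPM in wild-type and 163 ± 4.11 CPM in Ahrr-deficient libraries. The feedback repressor gene Cry1 rose from 15.8 ± 1.19 to 26.9 ± 2.61 CPM (0.72, adjusted p = 0.00376). Per2 was called higher near the threshold (0.80, adjusted p = 0.0479) and its groups overlapped, with Ahrr-deficient replicate 1 at 19.1 CPM within the wild-type range of 16.5 to 19.6 CPM. The Per2 call was lost in 9 of the 16 other fits, among them those with the replicate block, with upper-quartile scaling and without any 1 wild-type library. Dbp, Per1 and Cry1 passed in each of the 16. Tef, named after its values were seen, was the fifth gene that fell. The count of 7 became 4 without wild-type replicate 1 or Ahrr-deficient replicate 2. The labels give no hour of harvest.

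Regulators outside these families were called in both directions. Of 23 tested, 7 rose and 3 fell, where 9.62% and 9.95% of all tested genes did so. The median log2 fold change was 0.07. Id1, an inhibitor of bHLH factors, rose from 10.3 ± 3.70 to 41.9 ± 14.7 CPM (1.92, SE 0.27, adjusted p = 0.00353). Tfec and Mitf, factors of lysosomal and osteoclast genes, rose by 1.17 and 0.55 on the log2 scale, and Runx1, a founder of the blood lineage, by 0.65. Prdm1 and the clock-linked repressor gene Nfil3 fell by 1.40 and 0.96. The count of 10 became 6 without wild-type replicate 1 or 2 or Ahrr-deficient replicate 3. Over all 11 lists without the 9 factors, 24 genes rose and 27 fell of 130 tested, a share of 39.2% against 19.6% of all tested genes. A few genes stand in 2 of these lists. The lists were chosen with earlier results of these data known, so the pooled share is not independent of those results.

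Levels of different factors were compared per length, as counts per 1000 bases of annotated exon per 1000000 counts (RPKM). In wild-type libraries the order of mean levels was Cebpb (174), Spi1 (112), Bhlhe40 (47.0), Cebpa (44.2), Pparg (27.1), Irf8 (24.0), Bhlhe41 (4.30), Maf (0.442) and Bach2 (0.192). Of the neighbours in that order only Bhlhe40 and Cebpa had overlapping ranges. In Ahrr-deficient libraries it was Cebpb (151), Bhlhe40 (131), Spi1 (113), Cebpa (45.9), Pparg (44.2), Irf8 (18.7), Bhlhe41 (5.90), Maf (0.210) and Bach2 (0.149). There Bhlhe40 overlapped both Cebpb and Spi1, Pparg overlapped Cebpa, and Maf overlapped Bach2. By its mean, Bhlhe40 went from the third place to the second. With the longest transcript as the length, 6 of 9 factors kept their wild-type rank, and Irf8 stood ahead of Cebpa and Pparg.

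**Figure D4:**
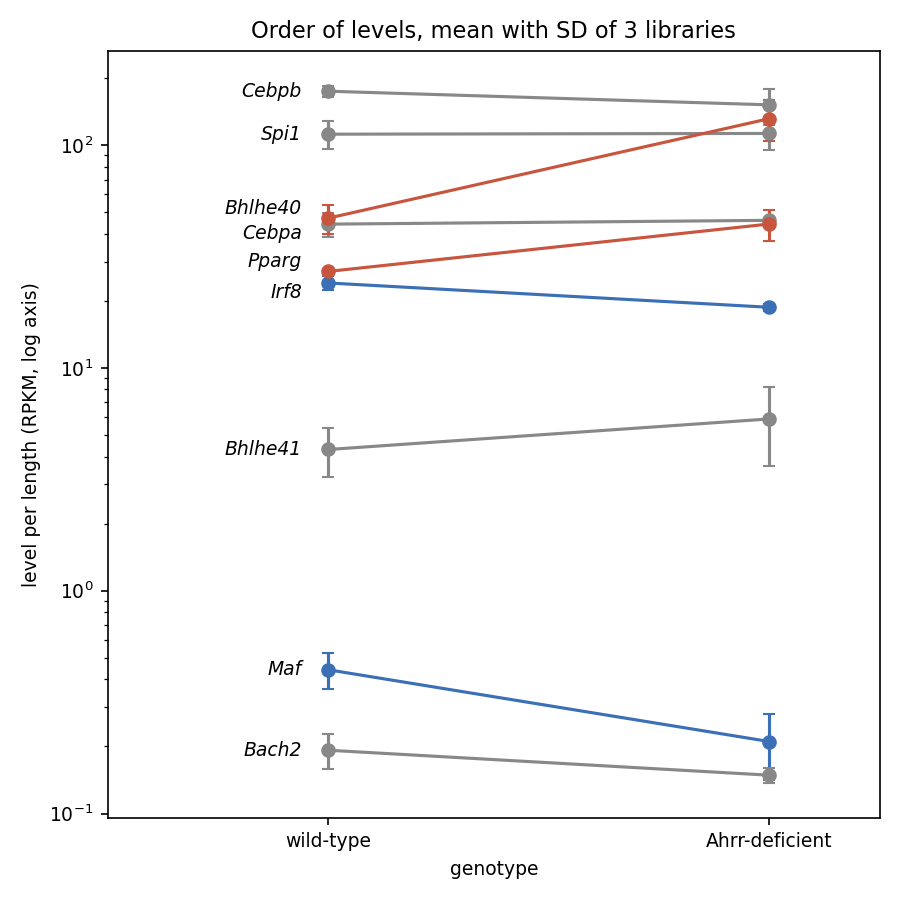
Mean level per length of the 9 factors in RPKM (vertical log axis) in wild-type and Ahrr-deficient libraries (horizontal axis), with SD of 3 libraries. Red lines are factors called higher, blue lines factors called lower and grey lines factors not past the threshold. The Bhlhe40 line rises from 47.0 to 131 and crosses that of Spi1.

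The spread between replicates is given as a coefficient of variation of CPM over 3 libraries, without a test between factors. In wild-type libraries it was 2.98% for Pparg, 5.94% for Cebpb and 24.5% for Bhlhe41. In Ahrr-deficient libraries it was 2.81% for Cebpa, 3.38% for Irf8 and 38.7% for Bhlhe41.

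**Figure D5:**
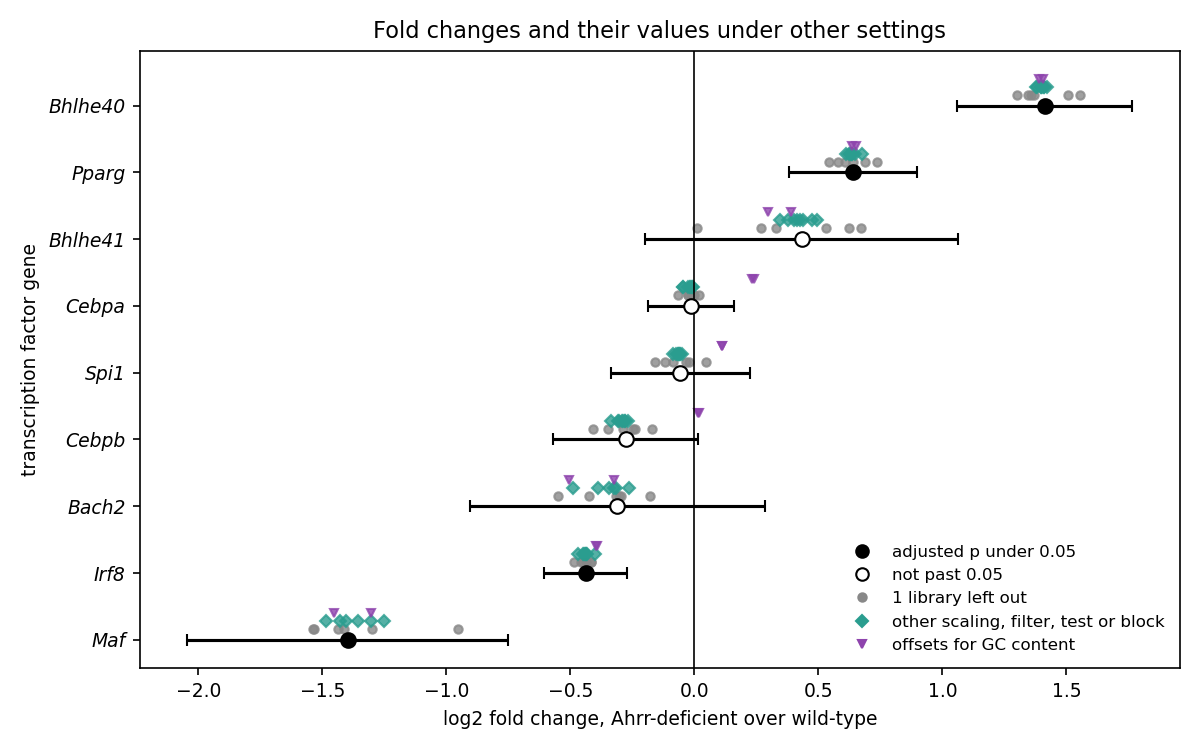
Log2 fold change of each factor, Ahrr-deficient over wild-type (horizontal axis), with 95% intervals as bars. Filled circles passed the threshold and open ones did not, and small symbols above each are the values of the other fits. Bhlhe40 (1.41) and Pparg (0.64) keep to the right of 0 and Irf8 (-0.44) and Maf (-1.40) to the left, while GC offsets carry Spi1, Cebpa and Cebpb across 0.

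For each called factor, the 3 genes with the most similar levels over the 6 libraries were listed by Pearson r of log2 CPM among tested genes with a mean of at least 50 counts. Bhlhe40 was closest to St7, Magohb and Rnase2a (each r = 0.998). Pparg was closest to Ttc7b (0.998), Map4 and Stx18 (0.995 each). The nearest genes to Irf8 were Ctsd (0.998), Sod1 and Gna12 (0.997 each). Those nearest to Maf were Grb7 (0.9995), Bmf and Myo9b (0.998 each). These values describe 6 libraries that share the difference between the groups and the same depths.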

How the data were processed

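The data were RNA-seq libraries of 6 cultures. Groups and replicate numbers came from the sample titles. The authors deposited raw read counts for 53465 features without identifiers and a normalised signal with identifiers for 16111 genes. Per the submitters' processing notes, CASAVA 1.8.2, fastp 0.20.0, STAR 2.7.10b, SAMtools 1.16.1, R 4.3.1, DESeq2 1.40.2 and mm10 were used. The counting program, annotation and strand setting are not given in the sources used here. The TruSeq v2 kit does not mark strand. Every deposited signal was a whole multiple of 1 read (100% of values, tolerance 0.001), and the recovered reads equalled the raw counts of the features with at least 10 counts in all. The identifiers could thus be joined to the counts, and the count test was run on these. Features without an identifier held 0.0232% to 0.0511% of counts and were left out.

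Counts were tested with edgeR 4.0.16 (R 4.3.3; quasi-likelihood test, TMM, filterByExpr, genotype as the only term), two-sided, with Benjamini-Hochberg adjustment over 11408 genes. SEs came from the fold change and its F statistic, and 95% intervals from the t quantile. CPM used totals of identified genes. Reads carry no molecular identifiers, so floors cover counting error only. Coordinates, exon lengths and overlaps came from GENCODE mouse release 21 (GRCm38), where 16094 of 16111 identifiers matched. Figures were made with matplotlib 3.10.9. The test was checked on simulated counts. Each library is labelled with its own mouse, and no label gives separate cultures or batches, so p-values measure the spread between these libraries.

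The 9 factors, the lists and the tests were chosen with earlier results of these data known. Named from each list were called genes with a mean of at least 50 counts, at most the 4 largest changes per direction, and always Irf4, Rxra, Bach1 and Ahrr. Of 4 ratios of related factors computed, 3 are given, and 1 further gene and 1 gene list are not reported here. Alternatives were RLE and upper-quartile scaling, no filter, a minimum mean of 50 counts, limma-voom (limma 3.58.1), DESeq2 1.42.0, the replicate number as a block, GC offsets (lowess, span 0.3), both together, thinning to the smallest total and each library left out.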

Additional observations from a re-analysis of the deposited data

How the results depend on the processing

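The calls of Bhlhe40, Pparg and Irf8 held in each of the 16 other fits. Maf, at a mean of 33.5 counts, was removed by a minimum mean of 50 counts and by thinning, as was Bach2, and was lost in the 2 fits given with its values. Between 3 and 4 of the 9 factors were called in every fit. Of 434 recomputed values, 366 were the same. For fold changes this means the same sign and the same outcome of the test, and for ratios the same sign only. Counts, including the number of ranks kept, could change by at most 1.5 times. Genes past the threshold over the whole table numbered 2232 (1097 higher, 1135 lower; 933 and 1301 with upper-quartile scaling), and 4087 had an unadjusted p under 0.05. The count was 1390 with the replicate block (1343 of them shared), 1307 with the block and GC offsets, 1187 after thinning, and 694 to 3857 with 1 library left out, lowest without wild-type replicate 1 and highest without Ahrr-deficient replicate 1. Over the lists, 51 genes were called, and 26 to 74 with 1 library left out. Same-numbered libraries did not deviate together (r of -0.17, 0.07 and 0.13), so the numbers were not taken as pairs, and the block changed no call among the 9 factors. Spi1 changed sign to 0.11 with GC offsets, 0.11 with these and the block, and ran from -0.161 to 0.0459 with 1 library left out, above 0 only without Ahrr-deficient replicate 1. Cebpa changed to 0.23 and 0.24, and ran from -0.0651 to 0.0183 with 1 library left out, above 0 only without wild-type replicate 1. Cebpb changed to 0.0171 with GC offsets and 0.0151 with these and the block. Bach1, at 0.00, went to -0.0283 with upper-quartile scaling, -0.00652 with a minimum mean of 50 counts, -0.00193 with DESeq2, -0.0610 with GC offsets, -0.0618 with these and the block, and -0.0895 to 0.0715 with 1 library left out. The causes were not tested. Depth limits Maf and Bach2 most: Ahrr-deficient replicate 1 held 8 and 5 of their counts.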
